A study of Homo sapiens with 27 samples.

Results

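The genes described here are the protein-coding genes of chromosome 19 whose symbol is ZNF followed by a number. They were taken by symbol and position, and their levels entered only through a minimum mean of 1 FPKM (fragments scaled by transcript length and library depth) over all libraries. Of 246 such genes in the table, 190 passed that minimum and 56 did not, and the 190 were part of 14611 genes tested. The members nearest to the minimum were ZNF324B at 1.01, ZNF583 at 1.15 and ZNF490 at 1.15 FPKM, and the nearest below it were ZNF14 at 0.998, ZNF506 at 0.991 and ZNF470 at 0.982 FPKM. One member, ZNF625-ZNF20, is a read-through of neighbouring genes. The RNA came from U2OS cells, a human osteosarcoma line, that had received a scrambled control shRNA or one of 2 shRNAs against TPR, called TPR A and TPR D, by lentivirus for 5 days. TPR is a protein of the nuclear pore's basket. Poly(A)+ RNA was sequenced from the nuclei, from the cytoplasm with the endoplasmic reticulum (cytoplasmic/ER) and from unfractionated cells (total) of 3 replicates per shRNA, which gave 27 libraries. All cultures come from 1 cell line, the infected populations were selected with puromycin, and both TPR comparisons use the same 3 control cultures.

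C2H2 zinc fingers are short repeated units in which 2 cysteines and 2 histidines hold a zinc ion, and strings of them bind DNA. Most ZNF genes of chromosome 19 lie in clusters that arose by duplication, and many encode a KRAB domain, which recruits the corepressor TRIM28 (KAP1) and with it SETDB1, a histone H3 lysine 9 methyltransferase. Many of these proteins silence transposable elements, for example ZNF91 (SVA elements) and ZNF93 (L1 elements). The comparison of fractions asks how the nuclear level of each mRNA stands to its cytoplasmic/ER level. The comparison of shRNAs asks how the level in each fraction differs when TPR is depleted. Libraries were scaled so that the typical gene is level between them. Both comparisons are thus relative to the typical gene, and the share of an mRNA that lies in the nucleus was not measured.

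The repeated unit is shown for 6 members on which the results turn, the pair with the highest N/C ratio (nuclear over cytoplasmic/ER level) and 4 that were higher with TPR shRNAs, to let their likeness be seen. Each line is the coding strand, 5′ to 3′, of the first C2H2 finger that is followed by the linker TGEKP and lies within 1 exon, with that linker, in the canonical GENCODE transcript on GRCh37. Capitals mark the codons of the 2 cysteines and 2 histidines.
ZNF224: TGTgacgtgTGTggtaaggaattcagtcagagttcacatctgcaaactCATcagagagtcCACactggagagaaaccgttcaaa
ZNF225: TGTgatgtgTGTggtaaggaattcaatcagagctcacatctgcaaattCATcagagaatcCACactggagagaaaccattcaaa
ZNF625: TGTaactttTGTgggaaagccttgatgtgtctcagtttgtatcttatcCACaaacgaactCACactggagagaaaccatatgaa
ZNF850: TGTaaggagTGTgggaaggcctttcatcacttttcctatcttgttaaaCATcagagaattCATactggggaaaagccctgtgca
ZNF460: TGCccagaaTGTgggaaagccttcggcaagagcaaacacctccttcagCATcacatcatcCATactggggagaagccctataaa
ZNF440: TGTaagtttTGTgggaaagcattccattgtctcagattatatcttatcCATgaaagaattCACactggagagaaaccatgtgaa
These stretches lie within coding exons at chr19:44610929-44611012 (plus strand), chr19:44635383-44635466 (plus strand), chr19:12256571-12256654 (minus strand), chr19:37241264-37241347 (minus strand), chr19:57802501-57802584 (plus strand) and chr19:11942595-11942678 (plus strand). Over 84 bases the 15 pairs had 44 to 78 identical bases, with 78 for the neighbours ZNF224 and ZNF225 and 71 for ZNF440 and ZNF625. Such likeness bears on the values, since reads from shared sequence can be assigned to more than 1 gene. A median of 7.44% of the 31-base words of a member's canonical transcript also occurred in another gene. The share was over 25% in 20 members and over 50% in 8, among them ZNF625 (80.2%), ZNF625-ZNF20 (98.9%) and ZNF20 (73.2%), and values of these genes are uncertain.

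The members were expressed at low levels. Their median mean level was 3.5 FPKM, against 15.4 FPKM for all protein-coding genes tested, 32 lay between 1 and 2 FPKM, and 23 were above 10 FPKM. The highest were ZNF888 (101 FPKM), ZNF428 (36.1 FPKM) and ZNF580 (34.2 FPKM). Of the 31-base words of ZNF888, 34.0% also occurred elsewhere, so that its level is uncertain. One FPKM on 1 kb of transcript stood for about 45.8 to 62.0 reads in nuclear, 32.3 to 48.7 in cytoplasmic/ER and 41.6 to 89.3 in total libraries, estimated from the steps between low values. TPR itself was lower in every TPR-depleted library than in any control library of its fraction, at 25.3, 25.7 and 28.2 FPKM in control total libraries, 3.44, 4.36 and 4.70 with TPR A and 3.23, 4.74 and 6.01 with TPR D. Of the markers of the line, VIM (854 to 2500 FPKM), SPARC, FN1, COL1A1, CDH2 and RUNX2 were present in total libraries. COL1A2 was near 0 (at most 0.476 FPKM). TERT and ATRX had been listed as low in this line. TERT was at most 0.032 FPKM, but ATRX lay at 14.9 to 38.4 FPKM, against that listing. Of markers of other cells, the epithelial EPCAM lay at 2.97 to 6.87 FPKM, CDH1 at 0.267 to 1.67 and the leukocyte PTPRC at 0.228 to 1.22 FPKM, and CD3E, CDH5 and KRT5 were at or near 0. The part of such cells in the results was not tested.

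A pair of libraries went against their labels. RNA of the mitochondrial genome made up 21.8% of the FPKM in the library labelled control nuclear replicate 2, against 0.774 to 2.42% in the other nuclear libraries, and 0.738% in the library labelled control total replicate 2, against 15.8 to 24.7% in the other total libraries. Across all genes tested, the first was closest to the total libraries (Pearson's r = 0.976 with their mean, and 0.944 with the nuclear mean) and the second to the nuclear libraries (r = 0.972, and 0.940 with the total mean), a comparison across genes that are not independent replicates. Both were kept under their labels, and the main results are also given without control replicate 2. Replicate 1 was labelled in another style than replicates 2 and 3, and values within these sets are given where they differ.

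In control cultures the ZNF mRNAs of chromosome 19 leaned to the nucleus relative to the typical gene. The median N/C ratio was 1.61-fold, or 0.69 on the log2 scale, with log2 medians of 0.62, 0.80 and 0.62 in the 3 cultures, and 152 of 190 members (80.0%) were above 0. The median over all genes tested was -0.01, which the scaling of the libraries sets near 0. Other protein-coding genes of chromosome 19 had a median of -0.55 and ZNF genes of other chromosomes one of 0.43, a description that was not tested. With limma (adjusted p under 0.05) 86 members were higher in the nucleus and 13 in the cytoplasm, 52.1% of members against a background of 39.4% of all genes. In 100 members all 3 nuclear libraries were above all 3 cytoplasmic/ER libraries, 52.6% against 24.7% of all genes, and in 22 all were below, 11.6% against 24.0%. Without control replicate 2 the median was 0.61, against -0.006 over all genes. Then 62 members were higher in the nucleus and 10 in the cytoplasm, counts without a share of all genes beside them.

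**Figure D1:**
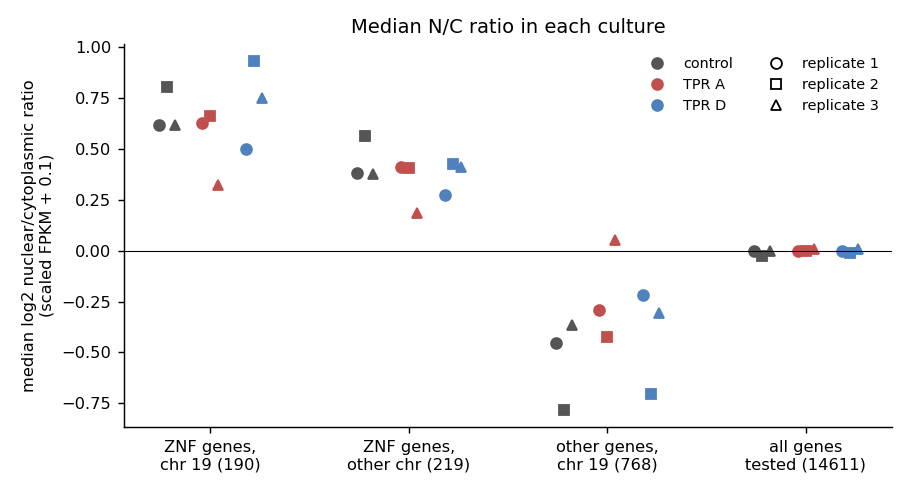
Median log2 N/C ratio (y axis, log2 of scaled FPKM + 0.1) over the genes of 4 classes (x axis, number of genes in brackets), with 1 point per culture, coloured by shRNA and shaped by replicate. The ZNF genes of chromosome 19 lie above 0 in all 9 cultures, from 0.32 to 0.93. All genes tested lie near 0, where the scaling of the libraries puts them.

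The 5 members with the highest N/C ratio were ZNF224, ZNF225, ZNF121, ZNF221 and ZNF571. ZNF224, a KRAB zinc finger repressor, lay at 5.91, 5.77 and 5.82 FPKM in control nuclear libraries and at 1.17, 0.989 and 1.32 FPKM in cytoplasmic/ER libraries. No library of the first kind overlapped the second, and the ratio was 4.85-fold (log2 2.28, SE 0.36, limma adjusted p = 7.175e-05). ZNF225, its neighbour, had 4.84, 3.32 and 4.24 FPKM in nuclear and 0.984, 0.652 and 0.990 FPKM in cytoplasmic/ER libraries, a ratio of 4.45-fold (log2 2.15, SE 0.27, limma adjusted p = 6.25e-06). ZNF121 had 8.78, 17.8 and 11.3 FPKM in nuclear and 2.29, 2.96 and 3.67 FPKM in cytoplasmic/ER libraries (log2 2.05, SE 0.38). Its highest nuclear value was in control replicate 2, without which the log2 ratio was 1.78. ZNF221 and ZNF571 had log2 ratios of 2.01 and 1.99. With TPR shRNAs ZNF224, ZNF225 and ZNF221 were again higher in the nucleus, with log2 ratios of 1.90 to 2.28 with TPR A and of 1.97 to 2.03 with TPR D. ZNF121 passed with TPR D (1.56) and not with TPR A (0.94), and ZNF571 passed with TPR A (1.91) and not with TPR D (1.20).

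The 5 members with the lowest N/C ratio were ZNF358, ZNF414, ZNF580, ZNF524 and ZNF749. ZNF358 lay at 16.8, 15.2 and 10.2 FPKM in control nuclear and at 76.8, 61.2 and 51.0 FPKM in cytoplasmic/ER libraries, which did not overlap (log2 -2.13, SE 0.26, limma adjusted p = 5.383e-06). ZNF414, ZNF580 and ZNF524 had log2 ratios of -1.56, -1.48 and -1.44. These 4 genes code for 1 to 9 fingers, span pre-mRNAs of 1422 to 4692 nt (the median over a gene's transcripts) and lack the KRAB signature described next. ZNF749, which codes for 13 fingers and has that signature, had 3.73, 3.47 and 2.11 FPKM in nuclear and 9.12, 9.72 and 6.58 FPKM in cytoplasmic/ER libraries (log2 -1.40, SE 0.30, limma adjusted p = 0.000847).

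The members had a median pre-mRNA length of 17661.5 nt and 4 exons, against 22871 nt and 7 exons for protein-coding genes, and differed among themselves in structure. The canonical coding sequence could be read in 189 members (that of ZNF274 was out of frame), and held a median of 12 C2H2 motifs (0 to 31). At least 1 motif was found in 188 members, against 2.93% of 12100 other protein-coding genes. The KRAB signature D-V-x7-E-W (x, any residue) was found in 139 members, against 0.967% of the other genes. In control cultures the median log2 N/C ratio was 0.75 in members with the signature and 0.36 in the 50 without it. That split depends on how the signature is written. A wider signature that also accepts Y-R-D/E-V-M-x-E was written after these values, and the members that the first left out, had been seen, and ZNF224, ZNF225 and ZNF221 were among those left out. It added 16 members, 12 of them from 1 group of neighbours (ZNF576 to ZNF296), was found in 1.02% of the other genes, and with it the medians were 0.78 in 155 members and -0.39 in 34. The size of the difference between the medians thus rests on a choice made with the data in view. The wider signature took in members with the highest ratios, so the same direction with it is no check on the first. Without control replicate 2 the medians were 0.65 and 0.42 with the first signature, and 0.67 and -0.15 with the wider. In members with 15 or more motifs the median was 1.10, in those with 11 to 14 it was 0.66, and in those with up to 10 it was 0.38. Across 189 members Spearman's rho of the N/C ratio was 0.337 with the number of motifs, and across 190 members 0.365 with the length of the canonical mRNA and -0.228 with the mean FPKM, given as descriptions of genes that share libraries and sequence.

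**Figure D2:**
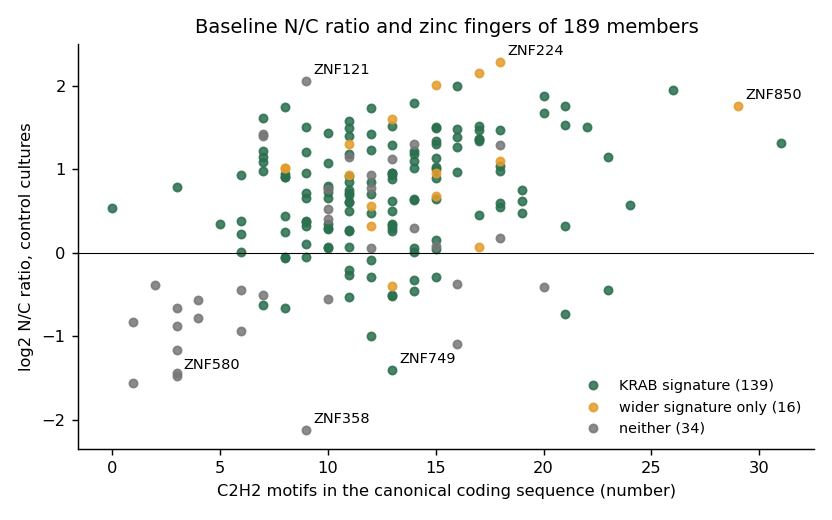
Log2 N/C ratio in control cultures (y axis) against the number of C2H2 motifs in the canonical coding sequence (x axis), with 1 point per member, coloured by KRAB signature. Members with neither signature take up most of the lower left, with ZNF358 lowest at -2.13, and ZNF224 is highest at 2.28.

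Along the chromosome, members split into 16 groups where neighbours lay more than 1 Mb apart. The largest held 47 members from ZNF628 to ZNF446 at chr19:55987984-58992597 (GRCh37), near the end of the long arm, with a median log2 N/C ratio of 0.29 and 27 of 47 above 0. The next, 34 members from ZNF175 to ZNF331 at chr19:52074536-54083523, had a median of 0.96 and 34 of 34 above 0. The groups from ZNF653 to ZNF791 (21 members, chr19:11594242-12750912) and from ZNF576 to ZNF296 (21 members, chr19:44100544-45579736) had medians of 0.96 and 1.02. The group from ZNF565 to ZNF573 (23 members, chr19:36673178-38307940) had a median of 0.54 with 22 of 23 above 0.

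**Figure D3:**
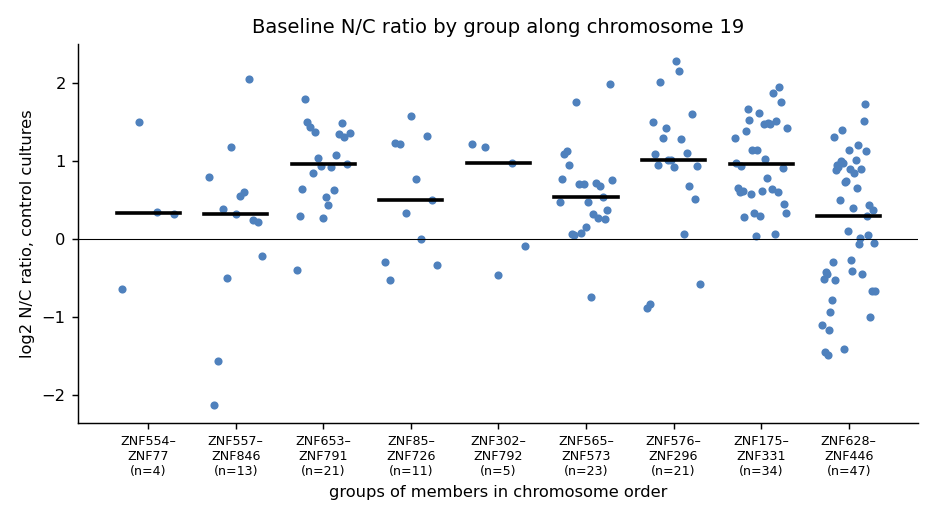
Log2 N/C ratio in control cultures (y axis) of the members in the 9 groups with at least 4 members, in chromosome order (x axis, first and last gene and number of members), with a bar at each group's median. The group from ZNF175 to ZNF331 lies above 0 throughout, and that from ZNF628 to ZNF446 is spread on both sides of 0.

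Besides ZNF224, described above, 4 of 6 members listed for a known role were called higher in the nucleus. Called higher were 45.3% of all members and 20.2% of all genes. ZNF91 and ZNF93 had log2 N/C ratios of 1.31 (SE 0.31) and 1.26 (SE 0.36) in control cultures, ZNF331, an imprinted gene, 1.42 (SE 0.36), and ZNF350, a partner of BRCA1, 0.94 (SE 0.28), each past the threshold. Without control replicate 2 ZNF331 was at 0.80 (limma adjusted p = 0.07038), and without control replicate 1 ZNF350 was at 0.70 (limma adjusted p = 0.1453), both short of it. ZNF274, which recruits SETDB1 to ZNF genes themselves, lay at 0.44 (SE 0.25, limma adjusted p = 0.176), and ZNF146, which consists of fingers alone, at 0.76 (SE 0.39, limma adjusted p = 0.1295), and neither passed.

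With TPR shRNAs the nuclear lean was still present. The median log2 N/C ratio was 0.55 with TPR A (65 members higher in the nucleus and 4 in the cytoplasm, 36.3% against 28.4% of all genes) and 0.73 with TPR D (86 and 6, 48.4% against 31.7%). Of 69 and 92 calls in all, the first count was 35 without TPR A replicate 1 and 24 without TPR A replicate 2. The second was 44 without TPR D replicate 2 and 58 without TPR D replicate 3. No share of all genes under these fits, which had fewer libraries, stands beside these lower counts. By culture the medians were 0.63, 0.66 and 0.32 with TPR A and 0.50, 0.93 and 0.75 with TPR D, which overlap the control medians. The median N/C change (log2 N/C with TPR shRNA minus that of control) was -0.09 with TPR A, 0.04 with TPR D and -0.02 with both, and 0.05 with both without control replicate 2. By limma 0 members passed the threshold in these 3 comparisons, as did 0 (0.0%) of all genes. At an unadjusted p under 0.05, with TPR A 2 members were higher (1.05%, against 0.835% of all genes) and 3 lower (1.58%, against 0.637%), and with TPR D 4 were higher (2.11%, against 0.561%) and 1 lower (0.526%, against 0.26%). With both shRNAs 3 members were higher (1.58%, against 1.07% of all genes) and 3 lower (1.58%, against 0.643%). The median SE of a member's change was 0.37. Large changes of a single gene did not pass either, such as that of ZNF749 (3.08-fold with both shRNAs). At an unadjusted limma p under 0.05, 1.72% of all genes passed with both shRNAs, fewer than expected if no gene changed. This fit took the nuclear and cytoplasmic/ER libraries of a culture as independent, though they deviated together in every culture. A fit with a correlation between libraries of a culture also called 0 members for each N/C change. The 0 calls thus do not show that changes, small or large, were absent. Other protein-coding genes of chromosome 19 had a median change of 0.22 with both shRNAs, which was not tested against the members. Spearman's rho between the N/C change with both shRNAs and pre-mRNA length was -0.213 across 189 members, against -0.491 across protein-coding genes, again a description. Without control replicate 2 it was 0.00289 across members. That value has no counterpart across protein-coding genes, for which rho was computed with all libraries only.

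Among single members the N/C change was largest in ZNF749. Its N/C ratio was -1.40 (log2) in control, 0.04 with TPR A and 0.40 with TPR D cultures. Nuclear levels were 4.09, 6.17 and 4.91 FPKM with TPR A and 5.01, 6.80 and 4.34 FPKM with TPR D, all above the control values given before, and cytoplasmic/ER levels were 2.89, 6.26 and 6.4 FPKM with TPR A and 3.69, 6.03 and 2.96 FPKM with TPR D, all below them. The log2 change was 1.62 (SE 0.36), with an unadjusted limma p of 0.0001848 and an adjusted p of 0.9994. ZNF552 (1.04, SE 0.39) and ZNF430 (0.95, SE 0.54) came next, and ZNF577 (-1.02, SE 0.43), ZNF93 (-0.89, SE 0.44) and ZNF121 (-0.80, SE 0.47) were at the other end, all short of the threshold (limma adjusted p = 0.9994 for each). The change of ZNF577 was -0.56 and that of ZNF121 -0.52 without control replicate 2, and without control replicate 1 that of ZNF552 was 0.56, while that of ZNF749 stayed between 1.54 and 1.71 without any one control culture.

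The level of the ZNF mRNAs differed from control in the median more than the N/C ratio did. Over all cultures the median was largest in the total fraction, but within replicate 1, which holds neither library that went against its label, it was smallest there (0.37, against 0.41 nuclear and 0.49 cytoplasmic/ER). With both shRNAs together the median log2 difference from control was 0.47 in total libraries (1.38-fold), and 167 of 190 members (87.9%) were above 0, against 48.8% of all genes, whose median was -0.01. By limma 11 members rose and 0 fell, 5.79% against 1.14% of all genes. In 50 members all 6 TPR-depleted libraries were above all 3 controls, 26.3% against 3.94% of all genes, and in 0 all were below, against 2.98%. The median over members was 0.58, 0.50 and 0.41 above the control mean in the TPR A cultures and 0.28, 0.49 and 0.42 in the TPR D cultures, against 0.06, -0.17 and 0.09 in the control cultures, and the groups did not overlap. Separately, 6 members rose with TPR A (median 0.50, 3.16% against 0.821% of all genes) and 3 with TPR D (median 0.42, 1.58% against 0.753%), and 0 fell. Same-numbered control and TPR A total libraries deviated together, and a fit that took the number as a block called 12 members higher with TPR A. No share of all genes under that fit stands beside this count, so it has no background. ZNF genes of other chromosomes had a median of 0.25 and other protein-coding genes of chromosome 19 one of -0.22 with both shRNAs, neither tested against the members. Within replicate 1 these medians were 0.13 and -0.07, and within replicates 2 and 3 they were 0.35 and -0.31. The other genes of chromosome 19 lay 0.33 above the control mean in control total replicate 2, which went against its label. They lay at -0.195 and -0.167 in control replicates 1 and 3. In bulk samples a change in the number of cells of a kind and a change in RNA per cell cannot be told apart.

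These counts depended on single cultures, and the counts that follow have no share of all genes beside them. Without control replicate 2, whose total library went against its label, 2 members rose with both shRNAs, ZNF625 and ZNF850, 1 with TPR A and 2 with TPR D. Other cultures mattered as well. The count with both shRNAs was 2 when control replicate 1 was left out and 12 for control replicate 3. It was 3, 4 and 6 when the TPR A cultures were left out in turn, and 7, 7 and 3 for the TPR D cultures. The count with TPR A alone fell to 2 when control replicate 1 or TPR D replicate 3 was dropped, to 0 for TPR A replicate 1 or 2 and to 1 for TPR A replicate 3. That with TPR D alone was 1 after dropping control replicate 1, TPR D replicate 2 or TPR D replicate 3. Without control replicate 2 the median with both shRNAs was 0.36 and 163 of 190 members (85.8%) were above 0. Within replicate 1 alone the median was 0.37 and within replicates 2 and 3 it was 0.50.

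**Figure D4:**
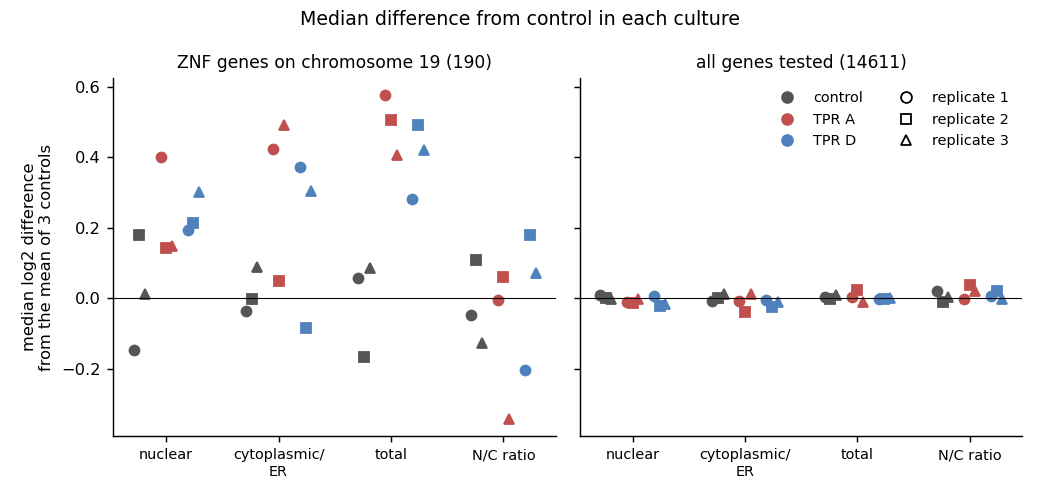
Median log2 difference of each culture from the mean of the 3 control cultures (y axis) in the nuclear, cytoplasmic/ER and total level and in the N/C ratio (x axis), for the members (left) and all genes tested (right), with 1 point per culture. In the total fraction all 6 TPR-depleted cultures lie between 0.28 and 0.58 for the members, above the control cultures, while the N/C ratios overlap.

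The 11 members that rose in the total fraction with both shRNAs were ZNF625, ZNF850, ZNF708, ZNF460, ZNF808, ZNF543, ZNF836, ZNF527, ZNF440, ZNF329 and ZNF256. ZNF625 had 2.81, 2.50 and 2.16 FPKM in control, 7.80, 8.44 and 5.13 with TPR A and 11.5, 8.17 and 6.28 with TPR D total libraries. The groups did not overlap, and the difference was 3.15-fold (log2 1.66, SE 0.25, limma adjusted p = 0.002388). Its reads can be shared with ZNF625-ZNF20, which lay at 0.59 (log2, SE 0.22, limma adjusted p = 0.1875). ZNF850, which codes for 29 fingers, had 2.27, 2.09 and 2.15 FPKM in control, 7.01, 4.93 and 5.97 with TPR A and 4.88, 9.20 and 8.23 with TPR D libraries, again without overlap (3.06-fold, log2 1.61, SE 0.31, limma adjusted p = 0.01393). Without control replicate 1 its adjusted p was 0.06735. ZNF460 had 1.5, 0.995 and 1.03 FPKM in control, 3.38, 2.95 and 4.46 with TPR A and 1.61, 3.01 and 2.73 with TPR D libraries (2.50-fold, log2 1.32, SE 0.25, limma adjusted p = 0.01228). The lowest TPR D value lay just above the highest control, and without control replicate 2 the adjusted p was 0.08753. ZNF440 had 3.09, 3.40 and 2.94 FPKM in control, 6.26, 5.91 and 5.09 with TPR A and 3.96, 4.84 and 4.73 with TPR D libraries (1.67-fold, limma adjusted p = 0.03817). The other 7 rose 1.63- to 2.69-fold, and all 7 missed the threshold without control replicate 2, when fewer libraries entered the fit and their log2 differences were 0.72 to 1.35 (against 0.71 to 1.43 with it). At the other end ZNF784 (log2 -0.84, SE 0.32), ZNF524 (-0.56, SE 0.21) and ZNF579 (-0.55, SE 0.27) did not pass (limma adjusted p of 0.1884, 0.184 and 0.3164).

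**Figure D5:**
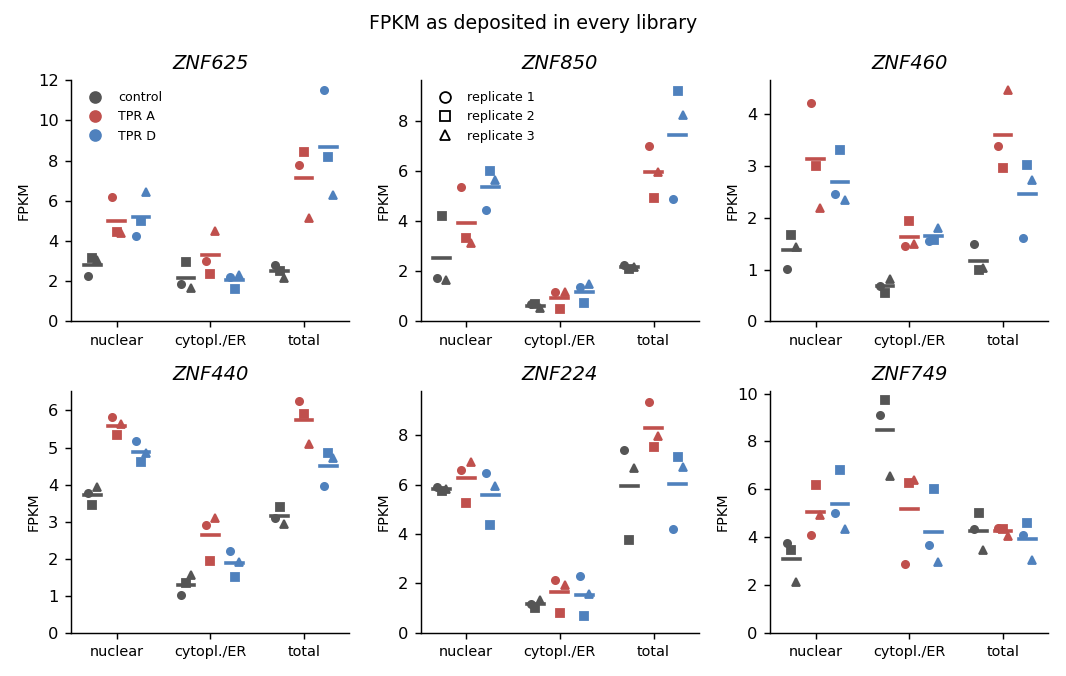
FPKM as deposited (y axis, from 0) in the nuclear, cytoplasmic/ER and total libraries (x axis) of 6 members, with 1 point per library, coloured by shRNA and shaped by replicate, and a bar at each group's mean. ZNF625, ZNF850, ZNF460 and ZNF440 lie higher with both TPR shRNAs in total libraries, ZNF224 overlaps between shRNAs in each fraction, and ZNF749 lies higher in nuclear and lower in cytoplasmic/ER libraries.

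In the nuclear and the cytoplasmic/ER fraction the members also leaned upward. The median log2 difference with both shRNAs was 0.27 in nuclear libraries, with 144 of 190 members above 0, and 0.27 in cytoplasmic/ER libraries, with 149 above 0. By limma 1 member rose in the nuclear fraction (0.526%, against 0.808% of all genes) and 3 in the cytoplasmic/ER fraction (1.58%, against 0.643%), and 0 fell in either. These shares do not stand out from the background in the nuclear fraction. With TPR A the counts were 1 in the nuclear (against 0.903% of all genes) and 2 in the cytoplasmic/ER fraction (against 0.623%), and with TPR D 0 in both (against 0.479% and 0.575%). At an unadjusted limma p under 0.05, TPR D gave 21 higher (11.1%, against 4.46% of all genes) and 1 lower (0.526%, against 4.67%) in the nuclear fraction, and 23 higher (12.1%, against 4.38%) and 4 lower (2.11%, against 5.04%) in the cytoplasmic/ER fraction. Counts from fits without a culture, given next, have no share of all genes beside them. Without control replicate 2 the counts with both shRNAs were 0 and 0 and the medians 0.29 and 0.24. The nuclear call of both shRNAs was also lost without any other single culture but TPR A replicate 3, and the cytoplasmic/ER count was 0 without control replicate 1 or TPR D replicate 3 and 1 without control replicate 3 or TPR A replicate 1 or 2. Within replicate 1 the medians were 0.41 and 0.49, above the 0.37 of the total fraction, and within replicates 2 and 3 they were 0.16 and 0.13, below its 0.50, so that the order of the fractions turned between the sets.

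The nuclear member was ZNF416, at 2.59, 1.55 and 2.46 FPKM in control, 4.45, 4.61 and 3.93 with TPR A and 3.76, 3.83 and 3.19 with TPR D nuclear libraries (log2 0.85, SE 0.20, limma adjusted p = 0.04385), which did not overlap. In the cytoplasmic/ER fraction ZNF563 had 0.476, 0.338 and 0.393 FPKM in control, 0.983, 1.24 and 1.59 with TPR A and 1.37, 0.686 and 1.15 with TPR D libraries, low levels that did not overlap (2.50-fold, log2 1.32, SE 0.24, limma adjusted p = 0.01255). ZNF460 and ZNF440 rose there too, by 1.16 (SE 0.25) and 0.76 (SE 0.17) on the log2 scale, which puts these 2 genes past the threshold in both the cytoplasmic/ER and the total fraction. None of these 4 calls remained with both shRNAs without control replicate 2, when the log2 differences were 0.63 for ZNF416, 1.23 for ZNF563, 1.04 for ZNF460 and 0.79 for ZNF440.

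Low levels and gene structure moved with the size of the total-fraction difference. Its median was 0.58 in the 63 members with the lowest mean FPKM (up to 2.63), 0.51 in the next 63 and 0.26 in the 64 highest (from 4.87 FPKM), and of the 11 calls 0 were among these 64. Members with the KRAB signature had a median of 0.54 (132 of 139 above 0) and those without it one of 0.15 (34 of 50 above 0). With the wider signature, chosen after the values were seen, these medians were 0.52 and 0.02. The medians were closer without control replicate 2, at 0.42 and 0.21 with the first signature and 0.41 and 0.09 with the wider. Members with the signature were also expressed at lower levels (median 3.19, against 5.30 FPKM), and the part of the level in the split was not tested. Across 190 members Spearman's rho of the difference was -0.398 with the mean FPKM (-0.324 across 12381 protein-coding genes) and 0.366 with the share of 31-base words found in other genes, which are descriptions. By group on the chromosome, the median was 0.76 in the 11 members from ZNF85 to ZNF726 (11 of 11 above 0), 0.62 from ZNF565 to ZNF573, 0.58 from ZNF653 to ZNF791, 0.50 from ZNF175 to ZNF331, 0.35 from ZNF628 to ZNF446, 0.30 from ZNF576 to ZNF296 and 0.23 in the 13 members from ZNF557 to ZNF846.

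TPR A and TPR D were also set against each other. By limma 0 members differed between them in the nuclear (against 0.315% of all genes), cytoplasmic/ER (against 0.637%) and total fraction (against 0.281%) or in the N/C ratio (against 0.0%). At an unadjusted p under 0.05, 4 members were higher with TPR D (against 3.59% of all genes) and 4 lower (against 4.44%) in the nuclear fraction, and 4 higher (against 3.03%) and 5 lower (against 4.37%) in the total fraction. In the cytoplasmic/ER fraction 1 was higher (against 3.68%) and 18 were lower (9.47%, against 4.43%), and in the N/C ratio 2 were higher (1.05%, against 0.226%) and 0 lower (against 0.11%). Same-numbered TPR A and TPR D libraries deviated together in the nuclear and cytoplasmic/ER fractions. With that number as a block 1 member was higher with TPR D in each, ZNF528 in the nuclear and ZNF544 in the cytoplasmic/ER fraction. They were named after their values were seen, and no share of all genes under that fit stands beside them.

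Of 28 genes of the machinery that KRAB proteins recruit, 27 were tested (UHRF1 was not analysed here). In control cultures 40.7% were called in either direction, against 39.4% of all genes. By direction, 10 of 27 were higher in the nucleus, against 20.2% of all genes, and 1 in the cytoplasm, against 19.2%. Their median log2 N/C ratio was 0.48, against -0.01 over all genes, a difference that was not tested. They were led by SMARCAD1 (2.04, SE 0.34) and CHD4 (2.03, SE 0.31), both chromatin remodellers, with MTA1, a subunit of the NuRD complex, at -0.90 (SE 0.24). With both TPR shRNAs 0 passed limma's threshold in the nuclear and cytoplasmic/ER fractions (at an unadjusted p under 0.05, 1 higher and 2 lower, and 2 higher and 1 lower, 11.1% in each against 11.8% and 11.4% of all genes). In the total fraction the median was -0.28 and 1 fell, RBBP4, a histone-binding subunit, by 0.77 on the log2 scale (SE 0.16, limma adjusted p = 0.01855), 3.7% against 1.14% of all genes. That call was lost when control replicate 1 or 2, TPR A replicate 2 or 3 or TPR D replicate 3 was left out (limma adjusted p of 0.05241 to 0.1075), while the log2 difference stayed between -0.67 and -0.76. TRIM28 (-0.31, SE 0.33) and SETDB1 (-0.26, SE 0.26) did not pass in the total fraction (limma adjusted p of 0.6605 and 0.6258). Of 15 other zinc finger genes of chromosome 19, 11 were tested. The 15 are C2H2 genes but for ZFP36, which is of the CCCH type. In control cultures PEG3 (2.04), ZFP30 (1.42) and ZFP82 (1.05) were higher in the nucleus and ZSCAN5A (-0.85) in the cytoplasm, 36.4% against 39.4% of all genes. With both TPR shRNAs 0 passed limma's threshold in the 3 fractions (at an unadjusted p under 0.05, 3 higher and 1 lower in nuclear, 1 higher in cytoplasmic/ER and 2 higher in total libraries, or 36.4%, 9.09% and 18.2% against 11.8%, 11.4% and 16.1% of all genes). The median in total libraries was 0.29.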

How the data were processed

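RNA Frac-Seq gave 27 libraries in 9 groups of 3. Per the labels and the study's methods, the authors quantified poly(A)+ reads of stranded libraries with Salmon (version not given in the sources used here) against Gencode transcripts on hg19, summed them to genes with tximport and deposited FPKM. The authors' tests used DESeq2. Each library was scaled by its median ratio to the geometric mean library, and the log2 of scaled FPKM + 0.1 was used. Fold changes on this scale understate those of low genes. Genes with a mean above 1 FPKM outside the mitochondrial genome were fitted with limma 3.58.1 (R 4.3.3, eBayes with trend) on all libraries, with Benjamini-Hochberg adjustment over 14611 genes. Called means an adjusted p under 0.05. Shares of all genes are given for the main fit only, so that counts from other fits have no background beside them. Gene positions and coding sequences came from GENCODE release 44 placed on GRCh37, a later release than the authors used. Matching by gene ID succeeded for 32776 of 34464 rows. Protein sequences were not used here, and C2H2 motifs (C-x2-C-x12-H-x3-H) were counted in the translated canonical coding sequence.

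The labels do not say that replicates were cultured separately, so p-values measure the spread between these libraries. Deviations of same-numbered libraries of different shRNAs correlated at 0.137 to 0.324 between control and TPR A in the total fraction. Between TPR A and TPR D they correlated at 0.131 to 0.265 in the nuclear and 0.397 to 0.596 in the cytoplasmic/ER fraction. These were over 0.1 in each pair, which other comparisons between shRNAs were not. The nuclear and cytoplasmic/ER libraries of a culture also deviated together. Their correlations were 0.281 to 0.404 in control, 0.223 to 0.468 in TPR A and 0.303 to 0.460 in TPR D cultures. The main fit took all libraries as independent. The scripts were tested on simulated data. Members, gene lists and the rule for named genes (the extremes of each comparison, calls, the highest levels and known roles) were chosen with earlier results of these data known. The wider KRAB signature and the values within replicate sets were added after seeing the data.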

Additional observations from a re-analysis of the deposited data

Results flagged for a closer look

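In ZNF146 the total level lay below the control mean in all 3 TPR A cultures (mean log2 difference -0.12) and above it in all 3 TPR D cultures (0.40), a difference of 0.53 between the shRNAs. Without control replicate 3 the TPR A difference was 0.07, so that both were above 0, and without control replicate 2 the differences were -0.40 and 0.13. In ZNF836 the cytoplasmic/ER level lay above the control mean in all 3 TPR A cultures (0.44) and below it in all 3 TPR D cultures (-0.42), a difference of -0.86. Its mean differences kept their signs without any one control culture, at 0.20 to 0.66 and -0.66 to -0.20. Both were marked because the cultures of the 2 shRNAs moved in opposite directions, which by itself is not a test. In the limma test of the difference between shRNAs neither gene passed the threshold in any fraction.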

How the results depend on the processing

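The direction of every member median with both shRNAs in the 3 fractions was the same under the alternatives listed next. So was that of the N/C ratio with each shRNA. They were pseudocounts of 0.01 and 1, no minimum level or one of 5 FPKM, FPKM as deposited and no variance trend. The replicate block, each culture left out, and values within replicate sets were listed with them. Counts of called members moved often, and counts under these alternatives have no share of all genes beside them. With a minimum of 5 FPKM, which kept 60 members, 34, 16 and 24 members were called for the N/C ratio in control, TPR A and TPR D cultures (medians 0.34, 0.18 and 0.44), and 0 members in each comparison of TPR shRNAs with control. The medians were then 0.20 and 0.30 with TPR A and 0.10 and 0.19 with TPR D in the cytoplasmic/ER and total fractions, and 0.15 and 0.26 with both. The excess over other genes of chromosome 19 was 0.93 for the control N/C ratio, 0.26 in the cytoplasmic/ER and 0.51 in the total fraction. Of the other zinc finger genes, 1 was called for the N/C ratio. With a pseudocount of 1 the control N/C median was 0.48, the cytoplasmic/ER medians 0.20 with TPR A and 0.19 with both, and that excess 0.97 and 0.27 for the N/C ratio and the cytoplasmic/ER fraction. The calls were then 10 with TPR A and 5 with TPR D in the total fraction, and 2 nuclear and 1 cytoplasmic/ER with both. A pseudocount of 0.01, and no minimum, gave 1 call with TPR D in the cytoplasmic/ER fraction. No minimum gave 0 nuclear calls with both, as did FPKM as deposited, which also gave 0 nuclear calls with TPR A. Without the variance trend the calls were 2 nuclear and 5 cytoplasmic/ER with TPR A, 2 cytoplasmic/ER and 5 total with TPR D, and 5 nuclear with both.

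With the replicate block, calls were 2 nuclear, 7 cytoplasmic/ER and 12 total with TPR A, 3 cytoplasmic/ER (1 of them lower, ZNF749) and 11 total (1 lower, ZNF784) with TPR D, and 5 nuclear and 6 cytoplasmic/ER (1 lower, ZNF749) with both, and 1 nuclear and 1 cytoplasmic/ER member differed between the shRNAs. Under that block 2 corepressor genes were called in each fraction and 1 of the other zinc finger genes in the total fraction. No share of all genes under that block stands beside any of these counts. A fit with a correlation of 0.205 between libraries of a culture called 97 members higher in the nucleus and 16 in the cytoplasm in control cultures. It called 75 and 8 in TPR A cultures, 99 and 9 in TPR D cultures, and 0 for each N/C change. Within replicate 1 the medians were 0.55 nuclear and 0.46 cytoplasmic/ER with TPR A, 0.46 cytoplasmic/ER and 0.24 total with TPR D and 0.49 cytoplasmic/ER with both, 0.50 for the TPR D N/C ratio, and 0.019 and -0.14 for the N/C change with TPR A and TPR D. Within replicates 2 and 3 the cytoplasmic/ER medians were 0.21, 0.069 and 0.13 with TPR A, TPR D and both. With the longest transcript in place of the median, Spearman's rho of the control N/C ratio was 0.333 with mRNA length and 0.105 with exons (0.0988 and 0.17 with the median). With the wider KRAB signature, members without it had medians of -0.39 for the control N/C ratio and 0.023 in the total fraction. Leaving out 1 culture at a time gave 72 to 102, 24 to 73 and 44 to 103 calls for the N/C ratio in control, TPR A and TPR D cultures. With TPR A it gave 0 to 1 nuclear, 0 to 4 cytoplasmic/ER and 0 to 5 total calls. These were 0, 0 to 1 and 1 to 4 with TPR D and 0 to 1, 0 to 3 and 2 to 12 with both. Of the other zinc finger genes, 2 to 4 were called for the N/C ratio. Medians ranged from 0.23 to 0.48 with TPR A, from 0.094 to 0.36 with TPR D and from 0.21 to 0.33 with both in the cytoplasmic/ER fraction. The N/C change ranged from -0.20 to 0.064 with TPR A and from -0.073 to 0.13 with TPR D, and thus took both signs. The difference between shRNAs ranged from -0.28 to 0.012 in the cytoplasmic/ER level and from 0.012 to 0.23 in the N/C ratio. The excess of the members over other genes of chromosome 19 ranged from 1.03 to 1.35 for the control N/C ratio, from 0.38 to 0.81 in the total and from -0.037 (without control replicate 1) to 0.32 in the nuclear fraction. The causes were not tested.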
